A study of Homo sapiens with 6 samples.

Results

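The genes described here are 9 human genes whose products bind or process double-stranded RNA in the innate antiviral response. They are the RIG-I-like receptor genes RIGI, IFIH1 and DHX58, the oligoadenylate synthetase family genes OAS1, OAS2, OAS3 and OASL, the kinase gene EIF2AK2 (its product is PKR) and the RNA editing gene ADAR. They were taken by gene name from a deposited table of raw read counts for 20532 genes, all 9 were found there by that name, and all 9 passed the filter on low counts. The libraries came from ACHN, an established human renal carcinoma line that the labels assign to clear cell renal cell carcinoma. Every line carried a lentiviral short hairpin RNA. The hairpin was a negative control in the 3 libraries of the shCtrl group and was directed against DNAJC2, a co-chaperone gene of the ribosome, in the 3 libraries of the shDNAJC2 group. The libraries were described as biological replicates of stable lines. Whether they came from separate transductions, clones or cultures was not given in the sources used here, so the spread that p-values rest on may be technical.

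Double-stranded RNA in the cytosol can be a sign of viral replication or of unedited cellular transcripts. RIG-I and MDA5 (the product of IFIH1) bind it and signal through MAVS to the interferon genes. OAS enzymes bind it and make 2′-5′ oligoadenylates, PKR binds it and phosphorylates the translation factor eIF2α, and ADAR deaminates adenosines within it and so makes it a poorer ligand. The genes themselves are interferon-stimulated, and promoters of such genes often hold an interferon-stimulated response element, built on repeated GAAA.

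The libraries held 17491462 to 25760291 counts each. shCtrl 3 stood apart from its group. A chi-square comparison of counts over genes gave 171 and 177 per degree of freedom against shCtrl 1 and 2, and 3.19 between those libraries. To a lesser degree shDNAJC2 3 stood apart too, at 39.5 and 32.7 against shDNAJC2 1 and 2, with 7.51 between those. The targeted gene DNAJC2 did not overlap between the groups, at 76.7, 69.8 and 86.5 CPM (counts scaled to a common library size by TMM) over control libraries 1 to 3 against 51.2, 50.4 and 38.5 CPM over knockdown libraries 1 to 3. Its log2 fold change was −0.74 ± 0.15 (SE), with an adjusted p of 0.43 in edgeR's test. Results are therefore given with and without shCtrl 3. Of the markers of the labelled tissue, KRT18 lay between 66.5 and 89.8 CPM and PAX8 between 2.82 and 4.64 CPM, while PAX2 and LRP2 had at most 1 count in any library. Others of the 10 markers were not steady. CDH6 was at 123, 127 and 17.7 CPM over control libraries 1 to 3 and 26.0, 22.8 and 42.8 CPM over knockdown libraries 1 to 3, high where the sensor genes were high, and CA9 was at 0.861, 1.30 and 8.83 CPM against 8.56, 8.32 and 7.68 CPM. Their part in the results was not tested.

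Promoter sequence is shown because the levels of these genes moved together across the libraries. Whether the sequence has a part in this was not tested. RefSeq windows (GRCh38.p14) running from 250 bases before to 50 bases after the annotated start were held for 6 of the 9 genes (OAS1, OAS3, RIGI, IFIH1, EIF2AK2 and ADAR, the last with 3 windows), and not for OAS2, OASL and DHX58. They were searched on both strands for GAAANNGAAA, the core of the response element, and for GAAANGAAA, a closer spacing of the same repeat. The motifs were chosen when the values of these genes were already known. The match nearest the start is shown for the 5 genes that had one, 5′ to 3′ on the strand of the gene, with the motif in capitals, so that the shared repeat can be compared.
OAS1: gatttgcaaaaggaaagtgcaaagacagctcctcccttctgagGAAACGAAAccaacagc
OAS3: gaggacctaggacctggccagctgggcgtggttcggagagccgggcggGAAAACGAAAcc
RIGI: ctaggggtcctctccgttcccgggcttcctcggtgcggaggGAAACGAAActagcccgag
IFIH1: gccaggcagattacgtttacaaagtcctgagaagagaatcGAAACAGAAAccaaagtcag
EIF2AK2: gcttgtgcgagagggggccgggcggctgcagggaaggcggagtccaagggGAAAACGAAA

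These 60-base stretches lie at chr12:112906902-112906961 (OAS1, plus strand), chr12:112938414-112938473 (OAS3, plus strand), chr9:32526381-32526440 (RIGI, minus strand), chr2:162318686-162318745 (IFIH1, minus strand) and chr2:37156977-37157036 (EIF2AK2, minus strand). OAS3 and EIF2AK2 carried the same 10 letters, GAAAACGAAA, and OAS1 and RIGI the same 9 letters, GAAACGAAA. Counted from the RefSeq start, the match ended at −9 in OAS1, −3 in OAS3 and −12 in IFIH1. It spanned the start in EIF2AK2 and lay at −203 to −195 in RIGI. These positions depend on the annotation, as the gene starts of GENCODE 29 differ. By those, the matches shown for OAS1, OAS3 and EIF2AK2 lie within the gene. That of IFIH1 then spans the start, and that of RIGI still lies before it. OAS3 had a second site, where GAAACGAAA and GAAACTGAAA overlap at −148 to −134, and IFIH1 had a pair of overlapping matches on the other strand at −159 to −144. No match was found in the 3 ADAR windows, which says only that these letters are not in those stretches.

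**Figure D1:**
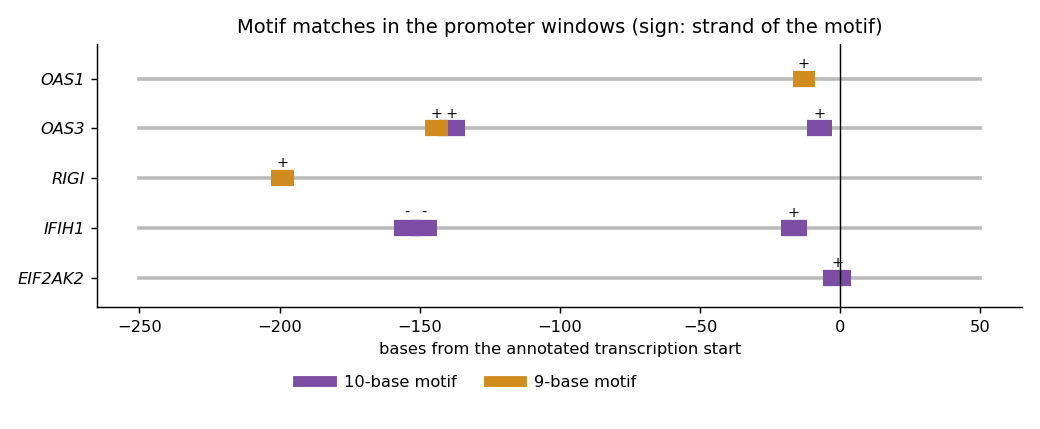
Positions of the 10-base motif GAAANNGAAA (purple) and the 9-base motif GAAANGAAA (orange) in the promoter windows of OAS1, OAS3, RIGI, IFIH1 and EIF2AK2. The axis is in bases from the transcription start annotated by RefSeq (black line). The sign above each match gives its strand relative to the gene, and 4 of the 5 genes have a match that ends at or within 12 bases of the start.

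Either motif was present for 5 of the 6 genes with a window. Of 10963 tested genes with a window in the same table, 7.16% had either motif, 4.06% the 10-base and 3.58% the 9-base form. Among 20 interferon-stimulated effector genes listed for comparison (such as MX1 and IFIT1), 17 had a window and 16 of these had a match. A match describes the letters only, and no binding was measured in these libraries.

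Coordinates are those of GENCODE 29 on GRCh38. OAS1, OAS3 and OAS2 are neighbours on the plus strand of chromosome 12 within 105 kb (112906777 to 113011723), and OASL (121019111 to 121039242) is 8007 kb further along. RIGI, named DDX58 in that annotation and matched by its identifier, is on chromosome 9 (32455705 to 32526324), IFIH1 on chromosome 2 (162267079 to 162318703), EIF2AK2 on chromosome 2 (37099210 to 37157065), DHX58 on chromosome 17 (42101404 to 42112733) and ADAR on chromosome 1 (154582057 to 154628013). All 9 are protein coding. An antisense gene, AC004551.1, overlaps OAS1, OAS2 and OAS3, and the strand setting of the counting was not given, so its reads could not be told apart from theirs. GPATCH11, on the opposite strand, likewise overlaps the end of EIF2AK2. PMPCB and PSMC2 overlap DNAJC2 on the opposite strand with 1721 to 3762 counts a library, more than DNAJC2 itself in each, so the printed DNAJC2 level has the same limit.

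All 9 genes were high in shCtrl 1 and shCtrl 2 and lower in every knockdown library, and they were also low in shCtrl 3. The level in shCtrl 2 was the highest of the 6 for each of the 9 genes, followed each time by shCtrl 1. The level in shCtrl 3 was the lowest of the 6 for 6 of the 9, against 21.7% of all genes tested. The controls thus spanned the knockdown range in those 6, and in DHX58, OAS3 and ADAR the lowest library was a knockdown library just below shCtrl 3. The groups did not overlap for 0 of the 9, against 8.43% of all genes tested with the knockdown lower and 15.8% in either direction.

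RIGI encodes RIG-I, the receptor for short double-stranded RNA with a 5′ triphosphate. Its level was 61.9, 75.5 and 17.2 CPM over control libraries 1 to 3 and 25.1, 21.1 and 36.5 CPM over knockdown libraries 1 to 3, from 352 to 1978 raw counts. IFIH1, whose product MDA5 assembles along longer duplexes, followed the same order of libraries, at 40.8, 48.2 and 11.9 CPM in turn in shCtrl and 16.8, 13.3 then 21.3 CPM under the DNAJC2 hairpin. In both genes shCtrl 3 lay below all the knockdown libraries, and shDNAJC2 3 lay above the rest of its group.

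DHX58 encodes LGP2, which lacks the signalling domains of the other receptors and modulates them. It was the least abundant of the 9, at 14.5, 15.8 and 2.89 CPM in turn in shCtrl and 2.61, 2.99 then 5.69 CPM under the DNAJC2 hairpin, from as few as 50 raw counts. Here shCtrl 3 lay inside the knockdown range. The drop from the mean of shCtrl 1 and 2 to the mean of the knockdown libraries was 4.03-fold for DHX58, against 2.49-fold for RIGI and 2.60-fold for IFIH1.

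**Figure D2:**
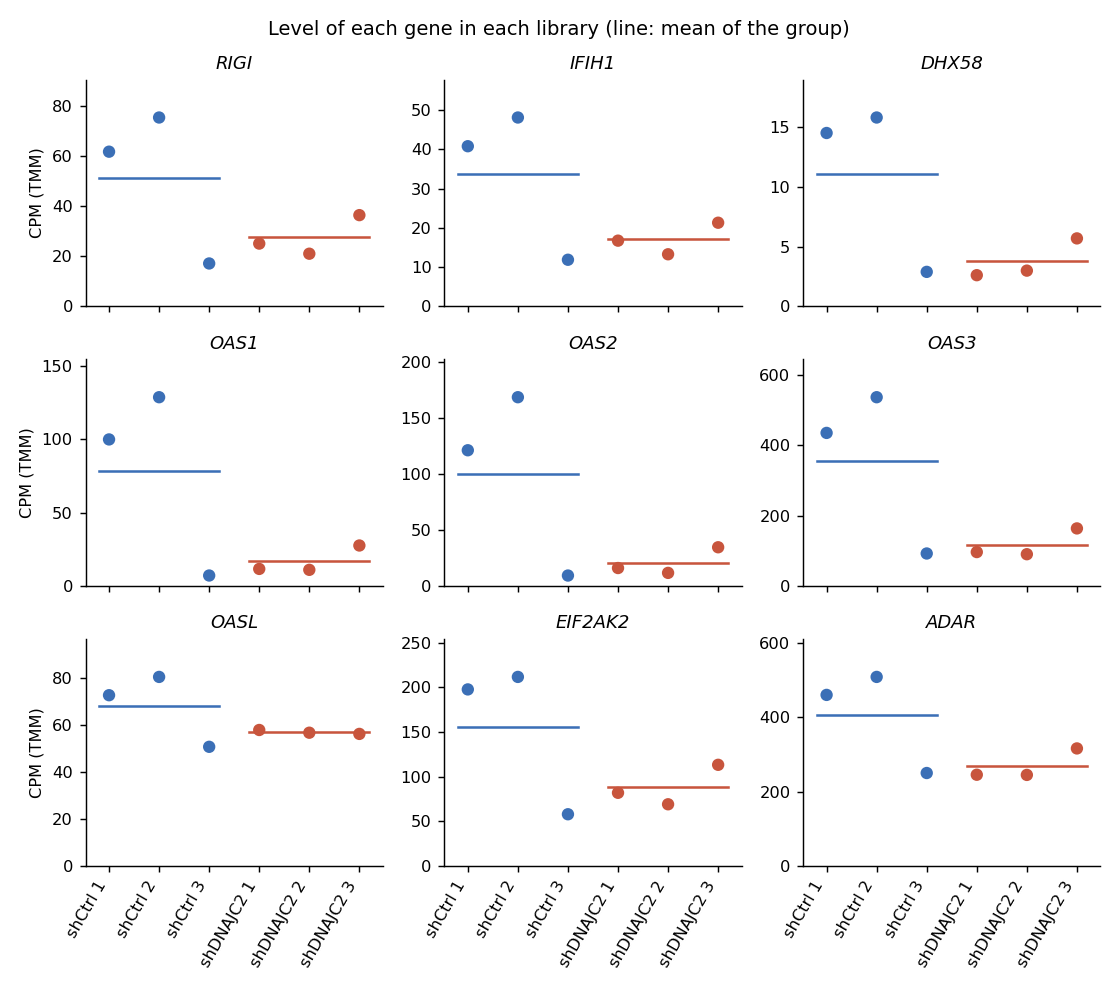
Level of each gene in CPM (TMM-normalized, linear axis from 0) in each of the 6 libraries, with shCtrl in blue, shDNAJC2 in red and a line at the mean of each group of 3. In all 9 panels shCtrl 1 and shCtrl 2 lie above the other 4 libraries, and OASL shows the smallest spread.

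The OAS genes held both the widest and the narrowest ranges. OAS1, with a single catalytic unit, was at 99.95, 129 and 7.20 CPM over control libraries 1 to 3 and at 11.7, 11.1 and 27.7 CPM over the knockdown. OAS2, with a repeated unit, was at 121, 169 and 9.41 CPM in turn in shCtrl and 16.1, 11.8 then 34.7 CPM under the DNAJC2 hairpin. Both spanned 17.9-fold from the highest to the lowest library. In both genes shCtrl 3 was lowest, and shDNAJC2 3 lay between the high controls and the rest.

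OAS3, the largest family member, was at 435, 536 and 92.4 CPM in turn in shCtrl and 96.5, 90.4 then 164 CPM under the DNAJC2 hairpin. It spanned 5.93-fold, and shCtrl 3 lay among the knockdown libraries. OASL, whose product has no synthetase activity and carries ubiquitin-like domains, was at 72.8, 80.6 and 50.8 CPM in turn in shCtrl and 57.9, 56.8 then 56.3 CPM under the DNAJC2 hairpin. Its whole span was 1.59-fold, and it was the only one of the 9 in which shDNAJC2 3 was not the highest knockdown library.

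EIF2AK2, which encodes PKR, was at 198, 212 and 57.8 CPM in turn in shCtrl and 81.8, 69.0 then 113 CPM under the DNAJC2 hairpin. ADAR, whose long isoform is made from an interferon-driven promoter and whose short isoform is made constitutively, was at 460, 509 and 249.8 CPM in turn in shCtrl and 245, 245 then 316 CPM under the DNAJC2 hairpin. The spans were 3.67-fold for EIF2AK2 and 2.08-fold for ADAR, and counts per gene do not separate the ADAR isoforms.

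Per kilobase of the longest annotated coding transcript, the mean level of shCtrl 1 and 2 was highest for ADAR (72.3 CPM per kb) and OAS3 (72.2), followed by OAS1 (47.3), OAS2 (30.7), OASL (23.5), EIF2AK2 (20.4), RIGI (15.8), IFIH1 (12.4) and DHX58 (5.79). ADAR and OAS3 did not differ beyond the spread of those libraries (68.7 and 75.9 for ADAR, 64.7 and 79.8 for OAS3), while OASL (22.3 and 24.7) lay above EIF2AK2 (19.7 and 21.1) in both. In the knockdown libraries ADAR was highest on this scale at 40.1 ± 6.13 CPM per kb (SD, n = 3). OASL (17.4 ± 0.263) and OAS3 (17.4 ± 6.05) came next. The ranges of mean ± SD of OAS1 (6.96 ± 3.89), OAS2 (4.41 ± 2.57), RIGI (6.33 ± 1.84) and IFIH1 (4.76 ± 1.12) overlapped. Library by library, OAS2 was above RIGI in shCtrl 1 and 2 and below it in each of the other 4 libraries. This order holds for the longest transcripts only. Per kilobase of the second longest, OAS3 would be highest, at 349 CPM per kb in shCtrl 1 and 2 and 83.9 in the knockdown, against 72.7 and 40.3 for ADAR. EIF2AK2 (47.2) and OASL (45.2) would then lie above OAS2 (40.2) in shCtrl 1 and 2. The OAS3 value on this scale comes from a far shorter annotated entry, of 1.392 kb against 6.719 kb for its longest. Which transcripts were present was not measured.

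The comparison of the hairpins asked whether lowering DNAJC2 changed these genes. Over all 6 libraries edgeR's quasi-likelihood test called 0 of the 9 at an adjusted p under 0.05 (adjusted p 0.43 to 0.49), and it called 0% of all 13988 genes in either direction. All 9 fitted log2 fold changes were negative, with a median of −0.97, against −0.02 over all genes tested, of which 52.3% were negative. By unadjusted p under 0.05, edgeR placed 4 of the 9 on the lower side (DHX58, OAS1, OAS2 and OAS3), against 7.33% of all genes tested. DESeq2 placed 6 of the 9 there, against 6.85%, and limma-voom 0, against 5.51%. Neither called any of the 9 after adjustment (DESeq2 called 0.139% of its genes lower, limma-voom 0%), and DESeq2 gave no adjusted p for DHX58.

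The largest fitted difference was that of OAS2, with a log2 fold change of −2.25, a standard error of 0.93 and a 95% interval of −4.47 to −0.03. That of OAS1 was −2.22 (−4.42 to −0.01), that of OAS3 −1.60 (−3.04 to −0.16) and that of DHX58 −1.54 (−3.05 to −0.04). The intervals of RIGI (−0.90, −2.12 to 0.31), IFIH1 (−0.97, −2.12 to 0.18), EIF2AK2 (−0.82, −1.93 to 0.28) and ADAR (−0.60, −1.25 to 0.05) included 0, as did that of OASL (−0.26, −0.67 to 0.16). Exact two-sided permutation tests of each gene's log2 CPM gave p from 0.2 to 0.4, where 3 libraries against 3 allow no value under 0.1. For each of the 9 genes the standard deviation of the 3 controls was larger than that of the 3 knockdown libraries. OAS1, for example, had group means of 78.6 ± 63.5 CPM in shCtrl and 16.8 ± 9.40 CPM in shDNAJC2 (SD, n = 3 each).

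Leaving out shCtrl 3, which was singled out from these same counts, kept 2 controls against 3 knockdown libraries. In that fit all 9 were called lower (adjusted p 5.7e-04 to 0.011 in edgeR's test), as were 17.0% of all 14201 genes. These p-values rest in part on how close the 2 remaining controls were, and hold only with shCtrl 3 left out. The log2 fold changes of the OAS genes were −2.77 for OAS2, −2.74 for OAS1 and −2.05 for OAS3. Those of the receptors were −1.97 for DHX58, −1.37 for IFIH1 and −1.31 for RIGI, with −1.21 for EIF2AK2 and −0.85 for ADAR. OASL fell by 0.42, the smallest of the 9 changes, with a 95% interval of −0.64 to −0.21, next to −1.15 to −0.54 for ADAR. In each of the 9 genes shCtrl 1 and 2 both lay above every knockdown library, a pattern that held for 32.6% of all genes tested. The median of the 9 was −1.37 in this fit, −0.79 without shCtrl 1 and −0.61 without shCtrl 2, and no gene was called without either of these.

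**Figure D3:**
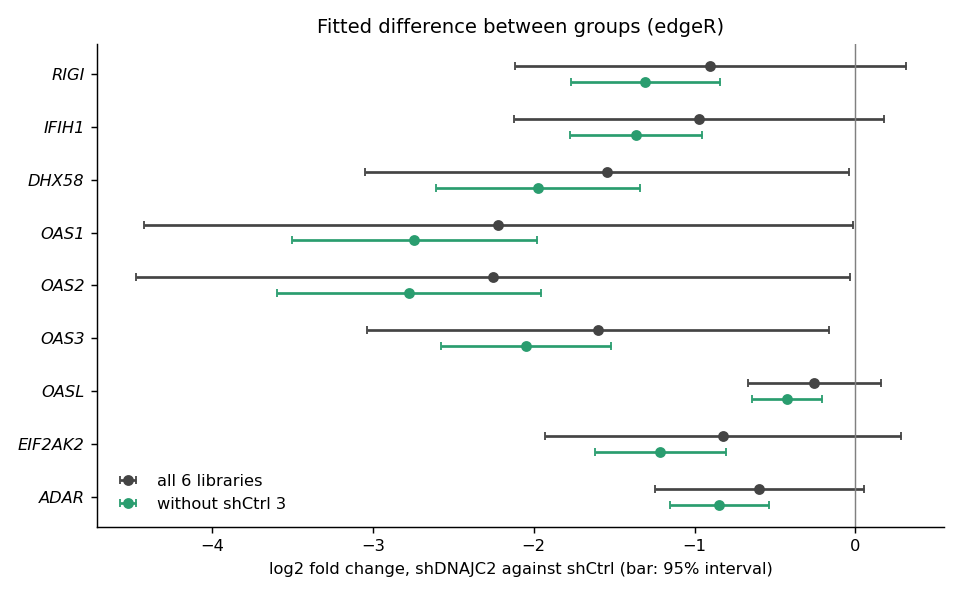
Fitted log2 fold change of shDNAJC2 against shCtrl for each gene, with 95% intervals, over all 6 libraries (grey) and without shCtrl 3 (green). All 18 points lie below 0, the grey intervals of 5 genes include 0, and none of the green ones do.

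The level of DNAJC2 and that of these genes did not run in one order within the groups. The library with the most DNAJC2 mRNA, shCtrl 3, had the lowest mean of the 9 genes, −0.99 relative to their 6-library mean on the log2 CPM scale, against 1.09 and 1.34 in shCtrl 1 and 2. The library with the least DNAJC2 mRNA, shDNAJC2 3, had the highest mean of the knockdown group, 0.0037, against −0.65 and −0.79 in shDNAJC2 1 and 2. In shDNAJC2 3, OAS2 was 2.49-fold and OAS1 2.43-fold above the mean of shDNAJC2 1 and 2, RIGI 1.58-fold, EIF2AK2 1.50-fold and OASL 0.981-fold.

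Ratios of counts within a library do not depend on scaling and showed which genes kept step. RIGI to IFIH1 was 1.52, 1.57 and 1.44 over control libraries 1 to 3 and 1.50, 1.59 and 1.71 over knockdown libraries 1 to 3. This ratio spanned 1.19-fold while the genes spanned 4.40-fold and 4.05-fold, and its lowest and highest values had overlapping 95% counting intervals (exact binomial, 1.24 to 1.69 in shCtrl 3 and 1.54 to 1.91 in shDNAJC2 3). OAS1 to OAS2 likewise stayed between 0.725 and 0.939, a span of 1.30-fold, with intervals of 0.608 to 0.864 in shDNAJC2 1 and 0.764 to 1.15 in shDNAJC2 2. These intervals hold for counting error alone, as PCR copies of 1 molecule were not separated.

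Other pairs did not keep step. OAS3 to OAS2 was 3.58, 3.17 and 9.82 for control libraries 1 to 3 next to 5.98, 7.67 and 4.72 for knockdown libraries 1 to 3, so that OAS3 exceeded OAS2 by most in the libraries where both were low. OASL to OAS2 went from 0.599 and 0.477 in shCtrl 1 and 2 to 5.39 in shCtrl 3 and 3.59, 4.82 and 1.62 in the knockdown. EIF2AK2 to ADAR, the kinase that responds to double-stranded RNA and the enzyme that edits it, was 0.430, 0.416 and 0.231 for control libraries 1 to 3 next to 0.334, 0.282 and 0.358 for knockdown libraries 1 to 3. DHX58 to IFIH1 was 0.355, 0.328 and 0.243 over the controls and 0.156, 0.225 and 0.267 over the knockdown, on few DHX58 counts. Between the groups none of the 7 ratios tested passed the threshold in an exact two-sided permutation test of the log2 ratio (p from 0.2 to 0.8, Benjamini-Hochberg adjusted 0.7 to 0.8, n = 3 each), in a design whose smallest p is 0.1.

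**Figure D4:**
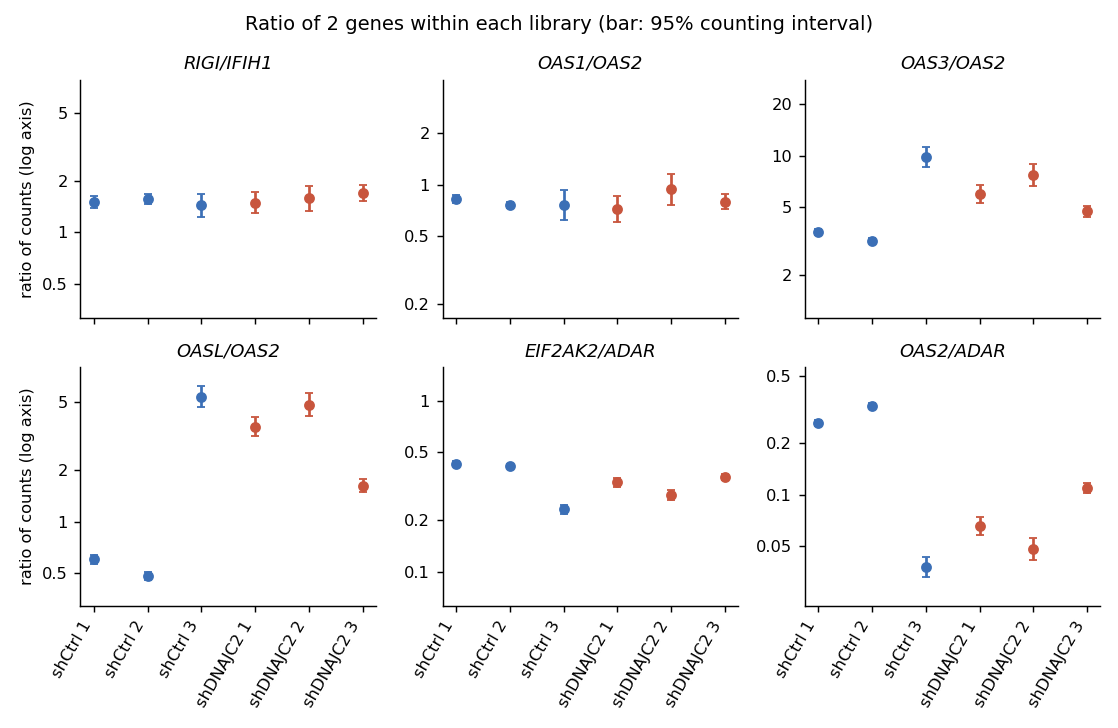
Ratio of the raw counts of 2 genes within each library on a log axis whose range is the same multiple in every panel, with shCtrl in blue, shDNAJC2 in red and bars for the exact 95% counting interval. RIGI/IFIH1 and OAS1/OAS2 stay nearly level across the 6 libraries, while OASL/OAS2 spans 11.3-fold and OAS2/ADAR 8.81-fold.

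The interferon genes themselves gave almost no reads. Of 10 listed, 9 did not pass the filter on low counts. Of these 9, 4 (IFNA2, IFNK, IFNG and IFNL3) had 0 counts in every library, which allows up to 0.115 to 0.179 CPM depending on the library, and 5 had 1 to 12 counts summed over all 6. IFNB1, the first interferon made after RIG-I or MDA5 signalling, had 2, 5 and 0 counts in shCtrl 1, 2 and 3 and 1, 2 and 2 counts in the knockdown libraries, too few to compare. IFNE, an epithelial interferon gene, was at 0.538 to 2.19 CPM with its highest value in shDNAJC2 3.

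Of 17 genes for interferon receptors and their signalling, 0 were called over all 6 libraries (median log2 fold change −0.22), and 7 fell and 3 rose without shCtrl 3, a fit that called 17.0% of all genes lower and 17.8% higher. USP18, which encodes a feedback inhibitor at the receptor, was at 67.9, 83.0 and 10.9 CPM against 11.9, 12.5 and 25.1 CPM, and it fell by 2.17 without shCtrl 3. The receptor gene IFNGR1 was at 26.9, 29.1 and 31.3 CPM in turn in shCtrl and 41.8, 35.7 then 32.4 CPM under the DNAJC2 hairpin, without overlap, and PTPN2, a phosphatase gene that limits JAK signalling, rose by 0.55 without shCtrl 3.

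Of 12 adaptor, kinase and transcription factor genes downstream of the RIG-I-like receptors, 0 were called over all 6 libraries (median −0.02), and 3 fell and 5 rose without shCtrl 3, the first near the 17.0% of all genes called lower and the second above the 17.8% called higher. IRF7, itself interferon-stimulated, was at 42.0, 54.7 and 16.7 CPM in turn in shCtrl and 11.4, 15.5 then 19.5 CPM under the DNAJC2 hairpin, and fell by 1.63 without shCtrl 3. TBK1, the kinase of IRF3, went the other way, at 32.3, 31.7 and 39.4 CPM against 49.4, 44.3 and 44.2 CPM, with no overlap between groups and a log2 fold change of 0.41 (0.12 to 0.71). Its adaptor gene TANK was at 30.6, 31.0 and 35.9 CPM against 44.3, 41.9 and 40.7 CPM, again with no overlap (0.38, 0.12 to 0.64). AZI2, another TBK1 adaptor, rose by 0.59 without shCtrl 3, though its groups overlapped. TBKBP1, a further TBK1 adaptor gene named after its values were seen, was lower in the knockdown. It was at 12.9, 11.6 and 11.4 CPM against 8.51, 8.73 and 10.7 CPM, without overlap (−0.36, −0.72 to −0.003). Of 12 genes whose products modify the receptors, 0 were called over all libraries (median 0.07), and 1 fell and 3 rose without shCtrl 3, near or below those shares. NLRX1, a mitochondrial protein gene, fell by 0.80 and the kinase gene RIOK3 rose by 0.68 without shCtrl 3. The phosphatase gene PPP1CA (−0.17, −0.42 to 0.08) and the deubiquitinase gene USP21 (−0.22, −0.59 to 0.16), given as log2 fold changes over all 6 libraries with 95% intervals, were called in neither fit.

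Among 12 regulators and targets of PKR the median was −0.07 and 0 were called over all libraries, and 1 fell and 3 rose without shCtrl 3, against 17.0% and 17.8% of all genes. DNAJC3, an inhibitor of PKR, was at 48.0, 51.6 and 46.5 CPM in turn in shCtrl and 66.2, 54.4 then 54.4 CPM under the DNAJC2 hairpin, without overlap (log2 fold change 0.26, −0.02 to 0.54). EIF2B4, a subunit gene of the exchange factor of eIF2, also had no overlap (−0.19, −0.42 to 0.04). Without shCtrl 3, EIF2S1, which encodes the eIF2α substrate, rose by 0.56 and PPP1R15B, which encodes a subunit of the eIF2α phosphatase, rose by 0.79. Named after their values were seen, EIF2B1 fell by 0.35 in that fit and PPP1R15A, the stress-induced counterpart of PPP1R15B, rose by 2.55. PPP1R15A was at 87.2, 94.4 and 948 CPM over control libraries 1 to 3 and 644, 754 and 194 CPM over knockdown libraries 1 to 3, so that shCtrl 3 was its highest library. The other 3 eIF2 kinase genes stayed within narrow ranges, EIF2AK1 at 140 to 173 CPM, EIF2AK3 at 17.6 to 21.0 CPM and EIF2AK4 at 90.5 to 110 CPM, and none of the 3 was called with or without shCtrl 3.

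Of 16 other genes for proteins that bind double-stranded RNA, 15 were tested, 0 were called over all libraries (median −0.08), and 6 fell and 3 rose without shCtrl 3, against 17.0% and 17.8% of all genes, the second count being near that share. TLR3, the endosomal receptor for double-stranded RNA, was at 7.22, 6.99 and 1.51 CPM in turn in shCtrl and 2.45, 2.15 then 2.94 CPM under the DNAJC2 hairpin. As for RIGI, shCtrl 3 was its lowest library and shDNAJC2 3 its highest knockdown library, and it fell by 1.48 without shCtrl 3. NLRP1, an inflammasome sensor, was at 58.8, 54.9 and 29.4 CPM against 26.6, 27.9 and 31.5 CPM and fell by 0.98. The helicase genes ZNFX1 and SKIC2 fell by less without shCtrl 3, with log2 fold changes of −0.37 and −0.59, and ZNFX1 had no overlap between the groups. ZBP1, a sensor of left-handed duplexes, had 0 counts in every library. Of 9 tested genes of DNA sensing, 0 were called over all libraries (median −0.22), and 3 fell and 2 rose without shCtrl 3, against 17.0% and 17.8% of all genes. In that fit the log2 fold changes were −1.43 for SAMHD1, −0.60 for IFI16 and −0.34 for RNASEH2A, which fell, and −0.27 for DDX41, which was not called. The 2 that rose, named after their values were seen, were CGAS (0.73) and STING1 (0.68), whose groups overlapped.

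**Figure D5:**
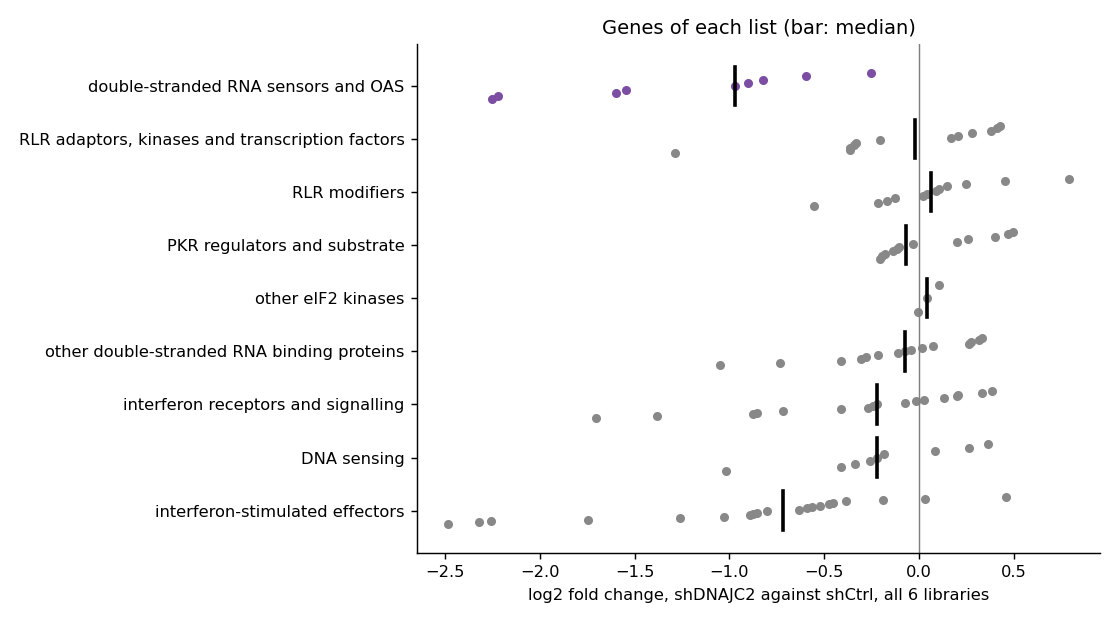
Log2 fold change of shDNAJC2 against shCtrl over all 6 libraries for each tested gene of each list (points), with the list's median (black bar). The 9 double-stranded RNA sensor and OAS genes (purple, median −0.97) and the interferon-stimulated effectors (median −0.72) lie mostly below 0, while the medians of the other lists drawn lie between −0.22 and 0.07.

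The 20 interferon-stimulated effector genes had a median of −0.72 over all 6 libraries, with 0 called, and 17 of them fell and 1 rose without shCtrl 3, against 17.0% and 17.8% of all genes. For 14 of the 20, shCtrl 3 was the lowest library. The groups did not overlap for 2 of the 20, with the knockdown lower, near the 8.43% of all genes tested. These were BST2 (40.9, 47.3 and 24.1 CPM against 21.9, 23.0 and 19.5 CPM) and IFITM3 (466, 530 and 323 CPM against 287, 298 and 290 CPM). Without shCtrl 3 the log2 fold changes were −1.04 for BST2, −0.77 for IFITM3, −0.76 for IFITM2 and −2.85 for MX1.

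The genes most like the 9 across libraries were ranked by Pearson's r, over the 6 libraries, with the mean of their centred log2 CPM. Among 10963 other named genes with a mean of at least 5 CPM, the highest r was that of MX2 (0.9997), followed by MX1 (0.9990), DTX3L (0.9989), and PARP9 and SAMHD1 (0.9986 each), among those reported. MX2 was at 85.8, 118 and 7.32 CPM in turn in shCtrl and 10.7, 8.67 then 24.4 CPM under the DNAJC2 hairpin, close to the profile of OAS2. Since shCtrl 1 and 2 stand far from the other 4 libraries, r over 6 points is high for many genes: 917 (8.36%) had r over 0.95, and 1154 had r under −0.95. Each of the 9 correlated with the mean of the other 8 at 0.984 to 0.999, except OASL at 0.944.

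Markers of other cell types were compared with this pattern. Of 12 leukocyte markers 5 had 0 counts in every library, PTPRC had at most 3 counts, and only CD68, which other cells also express, reached 1 CPM in all 6, with sums between 80.4 and 94.4 CPM for the controls and between 72.0 and 81.5 CPM for the knockdown. The 4 endothelial markers summed to at most 6.25 CPM. The 5 fibroblast markers were all present. Their sums were high where the sensor genes were high, at 3811, 3808 and 987 CPM for control libraries 1 to 3. In knockdown libraries 1 to 3 they were 874, 916 and 1491 CPM. COL1A1 and COL1A2 made up most of these sums, and the other markers moved less. PDGFRB was at 125, 128 and 95.9 CPM against 76.6, 82.6 and 91.9 CPM. DCN was at 23.3, 27.3 and 18.9 CPM against 21.2, 19.8 and 19.5 CPM. LUM was at 22.8, 24.5 and 14.1 CPM against 21.5, 18.5 and 18.8 CPM. The part of the fibroblast markers in the result was not tested. In bulk RNA fewer cells of a type and less RNA per cell cannot be told apart.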

How the data were processed

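mRNA-enriched RNA of ACHN cells was sequenced in 6 libraries, 3 per hairpin. The deposited table holds raw counts per gene, mapped to GRCh38 per the submitters' processing notes. For the aligner, counter, annotation and strandedness the record is silent: not given in the sources used here. Libraries held 17491462 to 25760291 counts, and a count of 3 corresponds to 0.115 to 0.179 CPM.

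From these counts, genes were filtered with edgeR's filterByExpr (13988 of 20532 kept), scaled by TMM and tested with edgeR 4.0.16 (quasi-likelihood F test, group only, all 6 libraries, R 4.3.3), with Benjamini-Hochberg adjustment at 0.05. All CPM were scaled by TMM. The prior count for log2 CPM was 2. DESeq2 1.42.0, limma 3.58.1, other scalings and filters, a replicate block and leaving out each library were alternatives. The fits were tested on simulated data. Permutation tests and counting intervals used SciPy 1.17.1. No libraries were identical. In each list up to 4 genes of lowest p, and others where stated, are named, and likeness ranked the 6 most alike. A list and some genes are not reported here. The genes, lists and motifs were chosen with earlier results of these data known.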

Additional observations from a re-analysis of the deposited data

How the results depend on the processing

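Under the 7 settings that kept all libraries, 62 of 62 fold changes of the 9 genes stayed negative and 0 passed the threshold. DESeq2 called 4 genes higher and 14 lower, and gave DNAJC2 a log2 fold change of −0.72 past the threshold (adjusted p 0.04997). The replicate block called 0 genes and gave −0.23 for OASL to −1.97 for OAS2. The replicate numbers are not said to pair the libraries. Same-numbered deviations from the group mean correlated at −0.38, −0.52 and −0.66. These values cannot decide pairing, since shCtrl 3 and shDNAJC2 3 each stood apart from their group. Leaving out 1 library gave 0 to 2532 genes higher, 0 to 2413 lower, 0 to 9 of the 9 genes lower, and 0 to 38 listed genes lower and 0 to 21 higher. The upper values all came without shCtrl 3, and the cause was not tested. Fold changes then ranged from −0.81 to −0.60 for DNAJC2, −1.31 to −0.51 for RIGI, −1.37 to −0.61 for IFIH1, −1.97 to −1.19 for DHX58, −2.77 to −1.66 for OAS1, −2.82 to −1.63 for OAS2, −2.05 to −1.16 for OAS3, −0.42 to −0.11 for OASL, −1.21 to −0.53 for EIF2AK2 and −0.85 to −0.39 for ADAR. Of 109 list medians 3 moved. The interferon genes gave no value with a minimum of 1 CPM in 3 libraries. Depth limits DHX58, with 50 counts in each of shDNAJC2 1 and 2, and the interferon genes.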
